A study of Mus musculus with 2 samples.

Results

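The 8 genes described here handle iron and heme in cells or bind metals. They were found by symbol among the 32285 genes of the count tables, and all 8 had unique molecular identifiers (UMIs) in both libraries. Hmox1 (heme oxygenase 1) breaks down heme and frees its iron. Tfrc (transferrin receptor) takes iron up, Slc11a1 (NRAMP1) moves metal ions out of phagocytic vesicles, Fth1 and Ftl1 (ferritin heavy and light chain) store iron, and Slc40a1 (ferroportin) is the known iron exporter of vertebrate cells. Mt1 and Mt2 (metallothioneins) bind zinc, copper and other metals.

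CD45+ cells, which are immune cells, came from the left flank tumor of C57BL/6 mice that carried MC38 colon cancer cells under the skin of both flanks. The right flank tumor was treated by microwave ablation (MWA) at a volume of about 300 mm3 and the left one was not, and cells were taken on day 8. The MWA group received MWA, with an isotype control antibody in the study's methods, and the MWA plus TIGIT group received MWA and an antibody against the coinhibitory receptor TIGIT, given 3 times at intervals of 3 days from day 1 by the labels. The number of mice behind each library is not given in the labels. Each group is 1 library, so a difference between groups cannot be told apart from a difference between libraries, no test between groups was possible, and every 95% interval below covers counting error only. Pairs of values are given in the order MWA library, MWA plus TIGIT library.

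After filtering, 9231 and 9127 cells remained with medians of 5337 and 6330 UMIs, and 28 of the kept cell barcodes occurred in both libraries. Cells were clustered without the 8 genes and without the other iron, heme and metal genes described here, and clusters were named from marker genes into 20 classes. Tumor-associated macrophage (TAM)-like cells, in 5 classes, numbered 3691 and 3819, CD8+ T cells 1998 and 2073 and neutrophil-like cells 99 and 88. The MWA plus TIGIT library was deeper in TAM-like cells, with medians of 8682 and 10632 UMIs per cell, and neutrophil-like cells were shallow, with medians of 932 and 1151. The hypoxic TAM-like class was led by hypoxia genes (Ndrg1, Hilpda, Slc2a1 and Bnip3) and also by the heat-shock genes Hspa1a, Hspa1b and Hsph1.

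Cells sense iron through regulatory proteins that bind a hairpin, the iron-responsive element (IRE), in messenger RNA. As background, when iron is scarce this binding blocks translation of ferritin and ferroportin from an IRE in the 5′ untranslated region (UTR) and protects the Tfrc transcript through IREs in the 3′ UTR, while metallothionein genes answer to zinc through short metal response elements in their promoters. Macrophages clear old red cells and recycle their iron, so the genes are best known there. UMI counts see transcript levels and not the translation of ferritin.

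The IRE pattern, a pairing stem around the loop CAGTGN, is shown here because the iron-sensing proteins bind it. It was found in 4 of the 8 genes, in GENCODE transcripts of the GRCm38 build, against 1.35% of 21630 protein-coding genes searched, and the match is a description of the letters. The loop is in capitals. The Fth1 element lies in the 5′ UTR at chr19:9982738-9982754 on the plus strand, that of Ftl1 in the 5′ UTR at chr7:45459785-45459801 on the minus strand and that of Slc40a1 in the 5′ UTR at chr1:45925471-45925487 on the minus strand. The 4 Tfrc elements lie in the 3′ UTR on the plus strand, at chr16:32631225-32631241, chr16:32631604-32631620, chr16:32631669-32631685 and chr16:32631716-32631732, in that order below.
Fth1: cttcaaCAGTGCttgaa
Ftl1: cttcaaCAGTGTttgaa
Slc40a1: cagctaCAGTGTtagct
Tfrc element 1: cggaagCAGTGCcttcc
Tfrc element 2: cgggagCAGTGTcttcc
Tfrc element 3: cggagaCAGTGAtctcc
Tfrc element 4: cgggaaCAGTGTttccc

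The promoters of Mt1 and Mt2, which lie next to each other on the plus strand of chromosome 8 (gene bodies chr8:94179082-94180327 and chr8:94172664-94173568), are shown because the pair had similar patterns across cell classes. The sequences are RefSeq promoters of GRCm38.p6, 300 bases each, at chr8:94178839-94179138 for Mt1 and chr8:94172368-94172667 for Mt2. Capitals mark the letters of the metal response element core, TGCACNC or TGCGCNC, searched on both strands. Mt1 held 3 matches, all on the plus strand, and Mt2 held 4, of which 2 were on each strand. Of 32851 promoters of this length, 1.97% held at least 3 matches and 0.517% at least 4.
Mt1 promoter: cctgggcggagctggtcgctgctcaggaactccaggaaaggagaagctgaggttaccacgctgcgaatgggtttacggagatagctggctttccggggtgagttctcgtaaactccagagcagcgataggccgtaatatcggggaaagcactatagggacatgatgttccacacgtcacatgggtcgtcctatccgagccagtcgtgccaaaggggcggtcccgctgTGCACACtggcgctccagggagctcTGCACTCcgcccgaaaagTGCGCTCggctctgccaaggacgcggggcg
Mt2 promoter: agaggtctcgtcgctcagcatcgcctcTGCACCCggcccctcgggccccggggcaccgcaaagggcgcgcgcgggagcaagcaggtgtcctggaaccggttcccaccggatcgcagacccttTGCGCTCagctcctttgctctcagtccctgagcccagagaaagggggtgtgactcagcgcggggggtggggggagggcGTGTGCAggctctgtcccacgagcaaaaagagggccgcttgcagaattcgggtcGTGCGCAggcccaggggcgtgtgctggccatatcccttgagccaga

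The first question is where the genes were expressed. Counts were summed over the cells of a class and scaled to CPM, the UMIs of a gene per 1000000 UMIs. Of the 8 genes, 6 were at least 1.5-fold higher in TAM-like cells than in all other named cells in both libraries, against 21.4% of 12878 genes. The log2 ratios were 3.11 and 2.41 for Hmox1, 2.96 and 2.65 for Mt2, 2.49 and 2.25 for Mt1, 2.09 and 1.77 for Slc11a1, 1.93 and 1.61 for Ftl1 and 1.73 and 1.42 for Fth1. Tfrc was lower in TAM-like cells, at -0.93 and -0.60. Slc40a1, at 0.19 and -2.59, differed in sign between the libraries and rested on few UMIs. Since clusters were made from the same cells, these ratios are descriptions without a test.

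**Figure D1:**
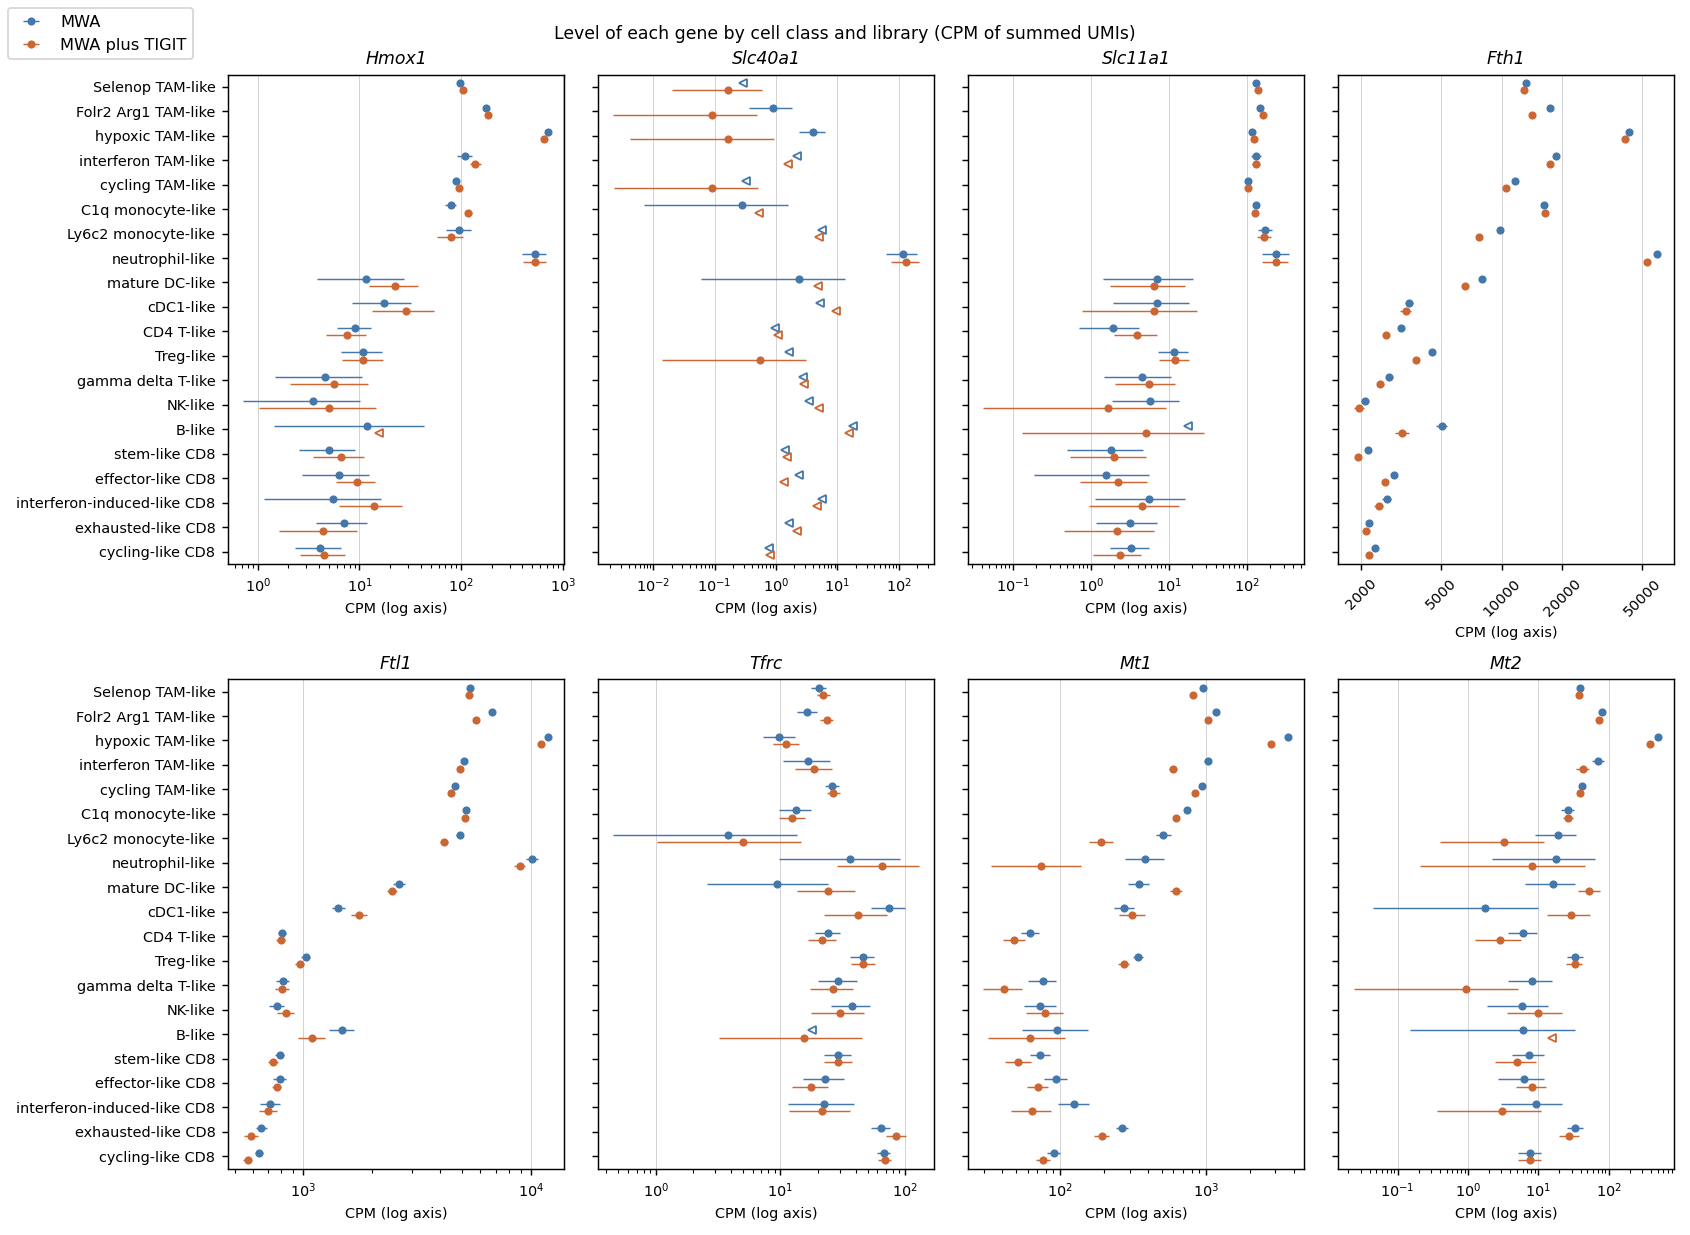
CPM of the 8 genes (horizontal log axes) in the 20 named classes (rows) of the MWA library (blue) and the MWA plus TIGIT library (orange). Points are CPM of summed UMIs, bars are exact Poisson 95% intervals, and open triangles mark classes with 0 UMIs at the level of 3 counts. Hypoxic TAM-like and neutrophil-like cells lead for Fth1, Ftl1 and Hmox1, neutrophil-like cells for Slc40a1, and cycling-like and exhausted-like CD8 cells are above every TAM-like class for Tfrc.

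Hmox1 was highest in hypoxic TAM-like cells, at 709 and 661 CPM, with 95% intervals of 686 to 734 and 641 to 682. Neutrophil-like cells followed with 528 and 533 CPM from 59 and 65 UMIs, and Folr2 Arg1 TAM-like cells had 176 and 185 CPM. The other macrophage and monocyte classes lay between 79.2 and 138 CPM, with overlapping intervals between many neighbours. Among them were Selenop TAM-like cells, led by the gene of a plasma selenoprotein, with 97.8 and 104 CPM. A UMI of Hmox1 was found in 75.2% and 81.2% of hypoxic TAM-like cells, and in 34.1% and 37.8% after every cell had been thinned to 1000 UMIs, against 2.5% and 3.04% and 0.607% and 0.829% of CD8+ T cells. The median depth of these cells was 6534 and 8042 UMIs and that of CD8+ T cells 4254 and 4061 UMIs. Hmox1 was uneven among the TAM-like cells, of which 10% held 59.3 and 53.9 percent of its UMIs, and single cells held up to 136 and 246 UMIs.

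Low Hmox1 and Slc11a1 in CD8+ T cells were near the level of free macrophage RNA. Per 100 UMIs of the macrophage genes C1qa, C1qb and C1qc, CD8+ T cells had 1.84 and 2.31 UMIs of Hmox1 and 1.01 and 0.838 of Slc11a1, and TAM-like cells had 1.4 and 1.31 and 0.877 and 0.864. These levels in CD8+ T cells were therefore read as background. Treg-like cells had more Slc11a1, with 2.56 and 3.13 from 22 and 22 UMIs, and NK-like cells had 2.49 and 0.578 from 5 and 1 UMIs. Hmox1 in Treg-like cells, 2.33 and 2.85 from 20 and 20 UMIs, was near that of CD4 T-like cells, 2.63 and 2.21. Fth1 in CD8+ T cells was far above the macrophage ratio, with 838 and 787 in CD8+ T cells and 127 and 108 in TAM-like cells, and so were Tfrc, with 17.7 and 17.1 against 0.133 and 0.139, and Mt1, with 43.5 and 30 against 9.63 and 7.37. Red cell RNA was scarce, with 73 and 70 UMIs of the 7 erythroid markers over all kept cells, 53 and 28 of them in TAM-like cells.

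Slc11a1, whose product acts in the membrane of phagocytic vesicles, was found in all neutrophil, monocyte and macrophage classes, and its levels lay closer together than those of Hmox1. It measured 242 and 238 CPM in neutrophil-like cells from 27 and 29 UMIs, 174 and 169 in Ly6c2 monocyte-like cells and 149 and 164 in Folr2 Arg1 TAM-like cells. Hypoxic TAM-like cells, which led for Hmox1, had 118 and 126 CPM, and cycling TAM-like cells were lowest among the macrophages with 103 and 105. Dendritic classes were low, at 7.02 and 6.42 CPM in mature DC-like cells and 7.03 and 6.4 in cDC1-like cells.

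Tfrc, which brings in transferrin-bound iron and is known to be high in dividing cells, was high in some T cell classes and in cDC1-like cells. In cDC1-like cells it was 73.8 and 41.6 CPM from 42 and 13 UMIs, and in mature DC-like cells 9.36 and 24.1 from 4 and 15. Neutrophil-like cells had 35.8 and 65.6 CPM, from only 4 and 8 UMIs. Among T cells it was 67.7 and 68.7 CPM in cycling-like CD8 cells, 63.8 and 84.8 in exhausted-like CD8 cells and 45.6 and 46 in Treg-like cells, against 28.9 and 29.2 in stem-like and 22.6 and 17.5 in effector-like CD8 cells. Cycling TAM-like cells had the highest level of the TAM-like classes, 25.7 and 26.6 CPM, and hypoxic TAM-like cells the lowest, 9.78 and 11.2. The interval of the hypoxic class (7.19 to 13 and 8.67 to 14.2) did not overlap that of the cycling class (22.6 to 29.2 and 23.6 to 29.8) in either library. A cluster of 26 and 24 cells that was left unnamed, led by Ctsk, Mmp9 and Acp5, which are genes of bone-resorbing cells, had 116 and 192 CPM of Tfrc, above every named class.

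Ferritin was led by neutrophil-like and hypoxic TAM-like cells. Fth1 measured 59195 and 52572 CPM in neutrophil-like cells and 43158 and 41251 in hypoxic TAM-like cells, and Ftl1 10102 and 8908 and 11899 and 11019. Both chains together were 6.93% and 6.15% of all UMIs in neutrophil-like cells, 5.51% and 5.23% in hypoxic TAM-like cells, 2.47% and 2.29% in all TAM-like cells and 0.306% and 0.29% in CD8+ T cells. Lymphocyte classes ranged for Fth1 from 1934 CPM in stem-like CD8 cells of the MWA plus TIGIT library to 5022 in B-like cells of the MWA library. Among them Treg-like cells had 4509 and 3768 CPM, above CD4 T-like cells with 3142 and 2665, with intervals that did not overlap.

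The balance of the chains differed between classes. The shares are of UMIs and not per length, so they are compared between classes only. Light chain Ftl1 made up 14.6% and 14.5% of ferritin UMIs in neutrophil-like cells, with exact binomial intervals of 13.8% to 15.4% and 13.7% to 15.3%, and these were the lowest shares of any named class. Hypoxic TAM-like cells had 21.6% and 21.1%, interferon TAM-like cells 21.5% and 22%, Selenop TAM-like cells 29% and 29.2% and Ly6c2 monocyte-like cells 33.2% and 35%. Neutrophil-like, hypoxic and interferon TAM-like cells were thus below the other myeloid classes in light chain share. Ftl1 has a near-identical pseudogene, Ftl1-ps1, which held UMIs equal to 1.14% and 1.38% of those of Ftl1 in TAM-like cells. Reads of the pair may be split between them, so Ftl1 is uncertain.

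**Figure D2:**
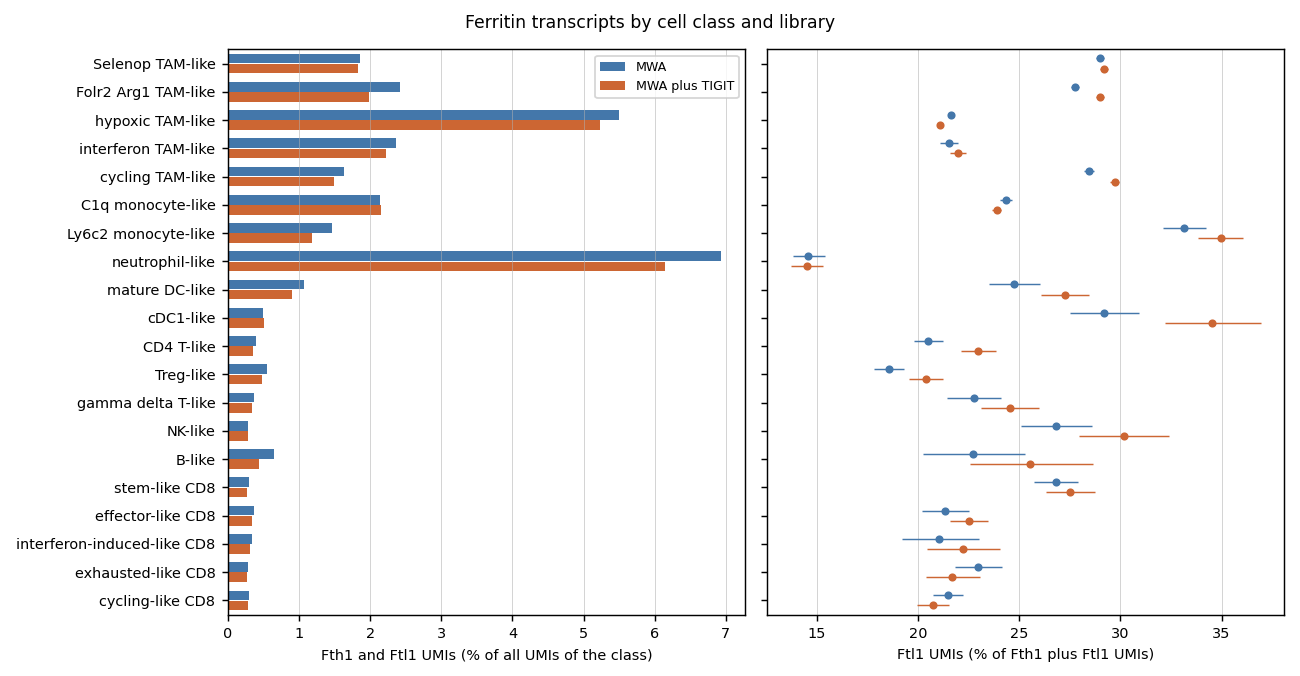
Left, Fth1 plus Ftl1 UMIs as a percentage of all UMIs of a class (bars from 0); right, Ftl1 as a percentage of ferritin UMIs with exact binomial 95% intervals (points), in 20 named classes of the MWA (blue) and MWA plus TIGIT (orange) libraries. Neutrophil-like cells combine the largest ferritin share, 6.93% and 6.15%, with the smallest light chain share, 14.6% and 14.5%.

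The exporter Slc40a1 had few UMIs in macrophages. It was highest in neutrophil-like cells, at 116 and 131 CPM, from only 13 and 16 UMIs in 11 and 12 cells, with intervals of 62 to 199 and 75 to 213. TAM-like cells had 26 and 5 UMIs among 3691 and 3819 cells, or 0.776 and 0.118 CPM. Per 100 C1q UMIs this was 6.88 and 15.4 in neutrophil-like cells and 0.00537 and 0.000753 in TAM-like cells, so the neutrophil-like counts were above the ratio of macrophage RNA. A UMI was seen in 11.1% and 13.6% of neutrophil-like cells and, in the cells that reached 1000 UMIs, in 6.82% and 8% after thinning, which left out 55 and 38 shallow cells. CD8+ T cells had 0 UMIs in both libraries, and 3 counts there would be 0.306 and 0.298 CPM.

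Metallothioneins were highest in hypoxic TAM-like cells. Mt1 measured 3663 and 2802 CPM there and 958 and 821 in Selenop TAM-like cells, and Mt2 503 and 383 and 39.5 and 37.7. The Mt2 part of metallothionein UMIs was 12.1% and 12% in hypoxic and 3.96% and 4.39% in Selenop TAM-like cells. Among lymphocytes Mt1 was highest in Treg-like cells, 344 and 274 CPM, and exhausted-like CD8 cells, 267 and 194, and it was 72.9 and 51.9 in stem-like CD8 cells. After thinning to 1000 UMIs, Mt1 was found in 18% and 12.3% of exhausted-like and 7.09% and 5.26% of stem-like CD8 cells, where the unthinned shares were 50.9% and 38.6% and 23.9% and 15.6% and the median depths 5257 and 5815 and 4014 and 4068 UMIs. The brain-type metallothionein Mt3 was near 0 in TAM-like cells and stood at 195 and 379 CPM in the Ctsk cluster.

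Mt1 was uneven among cells. A UMI of it was found in 93.4% and 95.3% of TAM-like cells (53.1% and 50.7% after thinning), and the top 10% of TAM-like cells held 47.4 and 47.5 percent of its UMIs, with up to 335 and 304 UMIs in 1 cell and medians of 6 and 6. Cells with Mt1 also tended to have Mt2. In hypoxic TAM-like cells thinned to 3000 UMIs, 48.3% and 40.7% of cells with Mt1 had Mt2, and 8.33% and 13.8% of the 36 and 65 cells without Mt1 did. Hmox1 was found in 58.7% and 65.6% of the cells with Mt1 and in 50% and 46.2% of those without, with overlapping exact binomial intervals in the MWA library.

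The hypoxic class was named from hypoxia genes and also led by heat-shock genes, so high sums of both there are part of how it was made. The sum of 5 heat-shock genes was 2369 and 3399 CPM there and 786 and 867 in all TAM-like cells, which include the class. The sum of 11 hypoxia genes was 3985 and 4502 there, 1802 and 2039.9 in all TAM-like cells and 4693 and 3995 in neutrophil-like cells. Neutrophil marker UMIs were also denser in the hypoxic class, with 309.97 and 307.5 CPM over 10 markers against 160.4 and 155.4 in all TAM-like cells, where neutrophil-like cells had 99898 and 146816. Whether heat-shock, hypoxia or neutrophil transcripts had a part in the high Hmox1, Fth1 and Mt1 of the class was not tested.

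Patterns over the 40 points made by 20 classes and 2 libraries were compared with those of 4676 other genes by Pearson correlation of log2(CPM + 1). The points share libraries and class depth, so the values are descriptions. Hmox1 was most like Sdcbp (0.95), Ftl1-ps1 and Cstb, the gene of a cysteine protease inhibitor. Fth1 was most like Cstb (0.98), Ftl1 (0.97) and Ninj1, and Ftl1 like Atp6v0c, Fth1 and Cd14. Slc11a1 was most like Prdx5, Gm5150 and Klra2. Slc40a1 followed the neutrophil genes Mrgpra2b, Mirt2 and Cxcr2, and Tfrc was most like Ciapin1 (0.85) and Hjurp. Mt1 was most like Anxa4, Eif4ebp1 and Mt2 (0.88), and Mt2 like Mt1, Slc27a1 and Bsg. Between the 8 genes, Tfrc had correlations from -0.35 to 0.14 with the others, whereas Hmox1 had 0.94 with Fth1 and 0.95 with Ftl1.

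The second question is whether the genes differed between the groups. In TAM-like cells most differences were small. Fth1 was 18285 and 16888 CPM, Ftl1 6408 and 6012, Hmox1 202 and 205 and Slc11a1 127 and 135. The log2 ratios of MWA plus TIGIT over MWA, with exact conditional binomial intervals, were -0.11 (-0.12 to -0.11), -0.092 (-0.10 to -0.084), 0.023 (-0.023 to 0.069) and 0.10 (0.039 to 0.15). Of the 8 genes, 1, Slc40a1, differed by at least 1.5-fold in TAM-like cells, a size reached by 5.75% of 12789 genes with at least 20 UMIs. The interval left 0 for 7 of the 8 genes and for 28.1% of those genes, and such intervals narrow with abundance.

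The lower Slc40a1 of the MWA plus TIGIT library rested on few cells. Its log2 ratio in TAM-like cells was -2.72 (-4.45 to -1.31). The 26 and 5 UMIs came from 10 and 4 cells, 1 of which held 6 UMIs. Hypoxic TAM-like cells held 19 and 1 of these UMIs, in 8 and 1 cells.

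Mt1 was lower in the MWA plus TIGIT library in most classes. In TAM-like cells Mt1 was 1391 and 1156 CPM, with a log2 library ratio of -0.27 (-0.28 to -0.25), and Mt2 was 117 and 97.4 CPM, with a log2 library ratio of -0.27 (-0.33 to -0.21). The ratio of Mt1 was below 0 in all 5 TAM-like classes, from -0.79 in interferon TAM-like cells to -0.15 in cycling TAM-like cells, and with equal class shares in both libraries it was -0.27. In interferon TAM-like cells of the MWA library, 220 of the 1423 Mt1 UMIs were in 1 cell. In CD8+ T cells Mt1 was 123 and 85.4 CPM, with a log2 library ratio of -0.52 (-0.65 to -0.39). There, 0 of the 7 genes with at least 20 UMIs reached 1.5-fold in CPM, against 9.05% of 11114 genes. The median log2 ratio over those genes was 0.14, and TMM factors, an alternative scaling, shifted ratios there by -0.13. Mt1 passed 1.5-fold with that shift.

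Over the 20 named classes, the interval of Mt1 was below 0 in 16 and above 0 in 1, and that of Fth1 likewise. Mt2 had at least 20 UMIs in 13 classes and was lower in 10 of them, with an interval below 0 in 2 and above 0 in 1. Of 4725 genes with at least 20 UMIs in at least 16 classes, 1.19% had an interval below 0 in 16 or more. That cut was set at the number Mt1 and Fth1 reached, and intervals narrow with abundance, so the share is a description without a test. Classes of a library share their free RNA and depth, so they do not replicate each other. Mt1 had its lowest ratios in Ly6c2 monocyte-like cells, 511 and 192 CPM, and neutrophil-like cells, 385 and 73.8 CPM, with log2 ratios of -1.41 and -2.38. The neutrophil-like value rested on 43 and 9 UMIs, 10 of them in 1 cell of the MWA library. Per 100 C1q UMIs these cells had 22.8 and 8.65 of Mt1, where TAM-like cells had 9.63 and 7.37, so the level in the MWA plus TIGIT library was read as background. Mature DC-like cells went the other way, with Mt1 at 346 and 624 CPM, with a log2 library ratio of 0.85 (0.57 to 1.13), and Mt2 at 16.4 and 53 CPM from 7 and 33 UMIs. In the MWA plus TIGIT library 66 of the 389 Mt1 UMIs of the class were in 1 cell. The class was deeper in that library, with medians of 5296 and 7574 UMIs, and in its cells of at most 5000 UMIs the Mt1 ratio turned to -1.77. It held 73 and 80 cells, led by Ccr7 and Fscn1 but also by Ifitm1 and Klrd1. A finer clustering left 24 and 33 mature DC-like cells and set apart a cDC2-like cluster of 122 and 125 cells, led by Ifitm1 and Klrd1 among others. The class may thus be mixed.

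Counts of the 8 genes past 1.5-fold, among those with at least 20 UMIs, differed between classes. In 9 classes 0 of the 4 to 7 genes measured did, where the share of all genes was 5.88% in Selenop, 7.52% in Folr2 Arg1 and 6.2% in cycling TAM-like cells, 10.2% in C1q monocyte-like, 13.5% in Treg-like, 19.8% in NK-like, 16.1% in stem-like CD8, 17% in exhausted-like CD8 and 12.3% in cycling-like CD8 cells. Of 8 genes in hypoxic TAM-like cells 1 did, Slc40a1, against 9.52%. Of 7 in interferon TAM-like cells 2 did, Mt1 and Mt2, both lower, against 13.8%. In the MWA library, single cells of this class held 220 of its 1423 Mt1 UMIs and 29 of its 99 Mt2 UMIs. Mt1 was the 1 gene, lower, of 5 in Ly6c2 monocyte-like cells, against 20.3%, of 4 in gamma delta T-like cells, against 17.2%, and of 4 in interferon-induced-like CD8 cells, against 21.0%. Mt1 and Mt2 were the 2 of 4 in mature DC-like cells, both higher, against 26.6%. In cDC1-like cells 1 of 4 did, Tfrc, against 25.4%, in CD4 T-like cells 1 of 6, Mt2, against 11.3%, in effector-like CD8 cells 1 of 6, Hmox1, against 15.9%, and in B-like cells 2 of 3, Fth1 and Mt1, against 27.8%. The intervals of Tfrc in cDC1-like, Mt2 in CD4 T-like, Hmox1 in effector-like CD8 and Mt1 in B-like cells held 0, and Hmox1 in CD8+ T cells was read as background above. These counts are in CPM. With the TMM shifts of -0.17, -0.16 and -0.15, Mt1 and Mt2 in stem-like, Mt1 in exhausted-like and Slc11a1 in cycling-like CD8 cells passed 1.5-fold. With those of -0.022 and 0.081, Hmox1 in effector-like CD8 and Fth1 and Mt1 in B-like cells no longer did. The shares of all genes are without TMM factors.

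**Figure D3:**
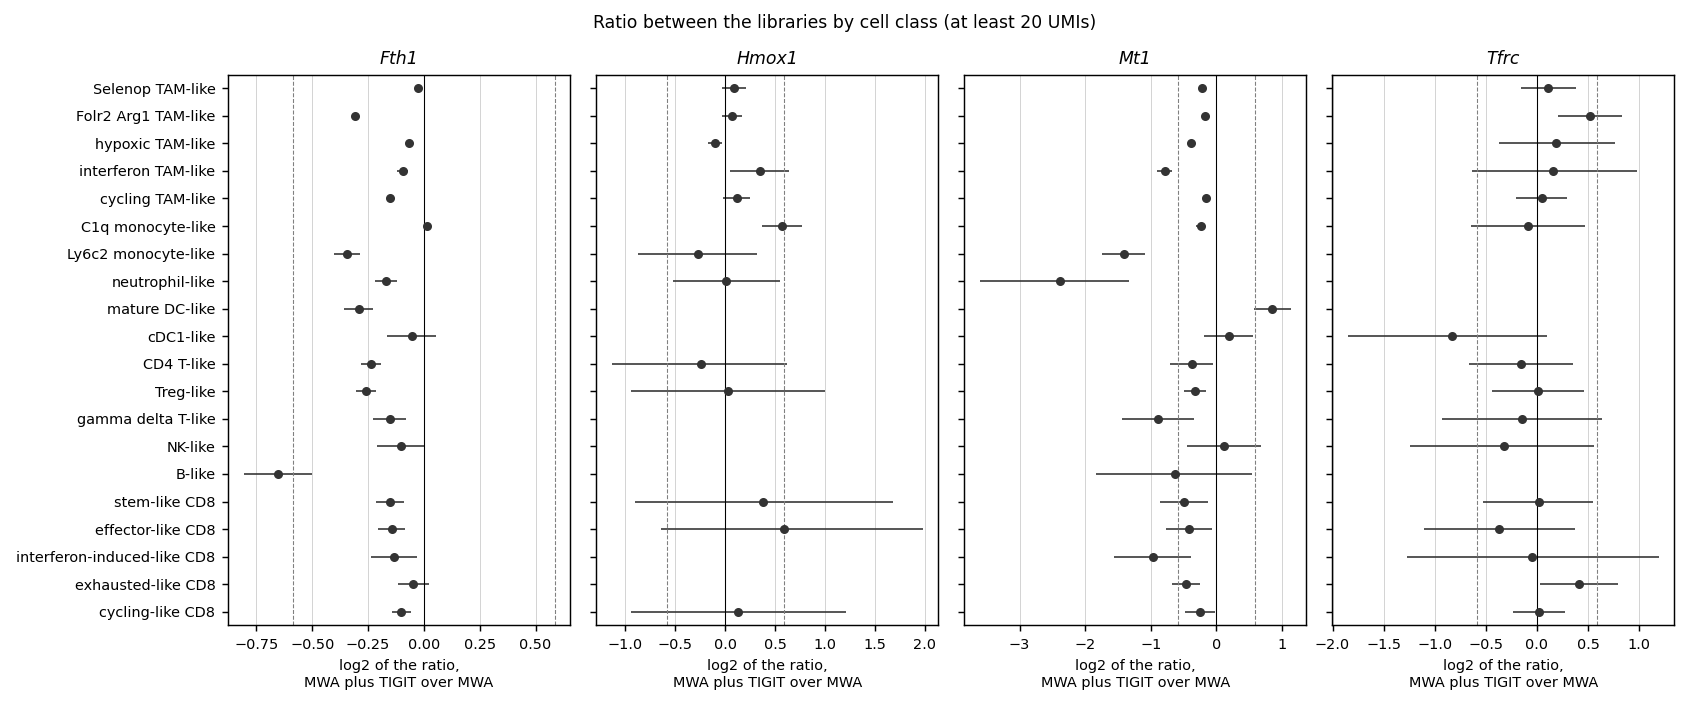
Log2 ratio of MWA plus TIGIT over MWA (horizontal axes, with a scale of its own in each panel) for Fth1, Hmox1, Mt1 and Tfrc in the named classes (rows) where a gene had at least 20 UMIs. Bars are exact conditional binomial 95% intervals, the solid line is 0 and dashed lines mark 1.5-fold. Mt1 is below 0 in 17 of the 20 classes and at 0.85 in mature DC-like cells, and Fth1 lies between -0.65 and 0.015.

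The metallothionein difference depended on the depth of the cells. TAM-like cells with at most 5000 UMIs (430 and 272 cells) had 1903 and 2118 CPM of Mt1, those with over 5000 and up to 10000 UMIs (1958 and 1391 cells) had 1686 and 1422, and those with over 10000 (1303 and 2156 cells) had 1085 and 1030.2. The log2 ratios were 0.15, -0.25 and -0.075, and for Mt2 0.42, -0.16 and 0.076. Over all TAM-like cells, Mt1 and Hmox1 were lower in CPM in deeper cells of both libraries, and the MWA plus TIGIT library had more deep cells. Within hypoxic TAM-like cells Hmox1 showed no steady fall, at 735, 700 and 729 CPM in the MWA library. In the MWA plus TIGIT library Hmox1 was 759, 615 and 723 CPM in this class. Over all TAM-like cells the log2 ratio of Hmox1 was 0.25 and 0.19 in the deeper bins, where the pooled ratio was 0.023. Fth1 turned in the middle bin, with 21183 and 23072 CPM and a log2 ratio of 0.12, and was -0.090 and -0.069 in the shallowest and deepest bins, where the pooled ratio was -0.11. In hypoxic TAM-like cells the Mt1 ratios in the 3 bins were 0.19, -0.57 and -0.10. Those of Hmox1 in this class were 0.046, -0.18 and -0.012, and those of Fth1 -0.14, -0.039 and -0.089. The bins also differed in class mix. Hypoxic TAM-like cells were 181 and 120 of the shallowest, 465 and 476 of the middle and 72 and 168 of the deepest cells. The parts of depth and of class mix in the pooled differences were not tested.

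**Figure D4:**
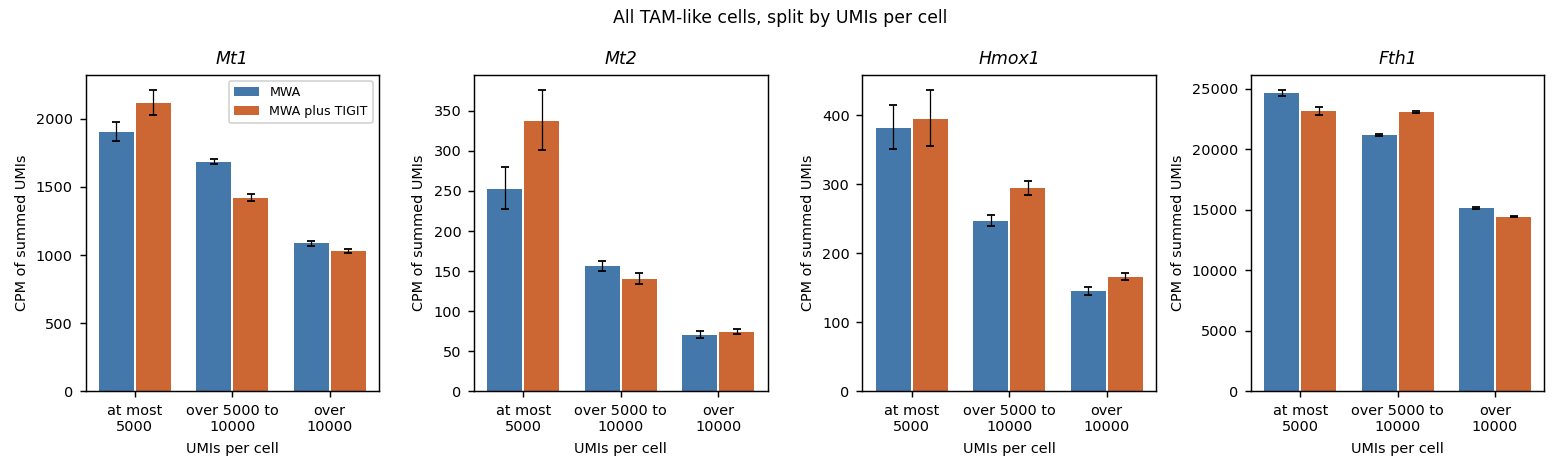
CPM of summed UMIs (vertical axes from 0) of Mt1, Mt2, Hmox1 and Fth1 in TAM-like cells of the MWA (blue) and MWA plus TIGIT (orange) libraries, in 3 bins of UMIs per cell, with exact Poisson 95% intervals. Mt1 falls from 1903 and 2118 CPM in the shallowest to 1085 and 1030.2 CPM in the deepest cells, and the MWA plus TIGIT library is the higher one only in the shallowest of the 3 bins.

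Tfrc was 19.3 and 21.9 CPM in TAM-like cells, a log2 ratio of 0.18 (0.037 to 0.33). It was higher in the MWA plus TIGIT library in Folr2 Arg1 TAM-like cells, at 16.4 and 23.4 CPM and a ratio of 0.52 (0.21 to 0.83), the class in which Fth1 had its lowest TAM-like ratio, -0.31, from 17469 and 14099 CPM. In exhausted-like CD8 cells Tfrc had a ratio of 0.41 (0.030 to 0.79), and in cycling-like CD8 cells 0.022 (-0.23 to 0.27). Hmox1 was higher in C1q monocyte-like cells of the MWA plus TIGIT library, at 79.2 and 117 CPM and a ratio of 0.57 (0.37 to 0.77), and close in neutrophil-like cells, at 0.013 (-0.52 to 0.55). Of the 673 Hmox1 UMIs of the C1q monocyte-like class in the MWA plus TIGIT library, 82 were in 1 cell. In neutrophil-like cells 1 of the 6 genes with at least 20 UMIs reached 1.5-fold, against 30.4% of 1409 genes.

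The wider pathways held few library differences of that size in TAM-like cells. Of the 11 measured genes of heme breakdown and transport, the 10 of heme synthesis and the 8 of mitochondrial iron, 0 reached 1.5-fold, with median log2 ratios of 0.14, 0.039 and -0.0053 beside 0.041 over all genes measured in TAM-like cells. Of 11 genes of iron uptake and vesicle release 1 did, Slc22a17, which was lower with 18 and 5 UMIs, and of the 10 oxidative stress genes of the NRF2 factor 1 did. That gene was Slc7a11, a cystine transporter gene, at 17.5 and 10.4 CPM, with a log2 library ratio of -0.75 (-0.93 to -0.57). Among the 8 genes of iron sensing, the 12 of metallothioneins and zinc, the 5 of iron storage and chaperones, the 7 of ferroptosis (cell death by lipid peroxidation) and the 11 of hypoxia, 0 reached 1.5-fold, against 5.75% of all genes. Of the 11 hypoxia genes 8 had an interval above 0 and 1 below, where 28.1% of all genes had an interval without 0 in either direction. Of 2 measured genes of iron export, Slc40a1 did. In CD8+ T cells the genes past 1.5-fold in any list were Blvra, 1 of 9 measured for heme breakdown and transport, Cpox, 1 of 10 for heme synthesis, Slc30a1, 1 of 13 for metallothioneins and zinc, and Ndrg1, 1 of 10 for hypoxia, against 9.05% of all genes. Blvra, which acts after heme oxygenase by reducing biliverdin, was 24.6 and 37 CPM, with a log2 library ratio of 0.59 (0.35 to 0.83), and the hypoxia gene Ndrg1 had a ratio of 0.82 (0.25 to 1.40). The median log2 ratio over all genes measured in CD8+ T cells was 0.14. With the TMM shift of -0.13 there, Blvra fell below 1.5-fold and Ndrg1 stayed past it.

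Neutrophil-like cells held other genes of these lists. Lcn2, which binds bacterial iron carriers, was 2731 and 3888 CPM, Hp (haptoglobin, which binds free hemoglobin) 627 and 623 and Slc7a11 1316 and 1279.7. Hp was higher in Ly6c2 monocyte-like cells, at 764 and 861 CPM. Between the libraries Ldha was 1889.6 and 1189 CPM, with a log2 library ratio of -0.67 (-0.98 to -0.36), and Vegfa had -0.65 (-1.26 to -0.052). Trf (transferrin) had a ratio of 1.60 (0.54 to 2.78) from 10 and 33 UMIs, and TAM-like cells had 204 and 234 CPM. Alas1, Pcbp2 and Slc3a2 were also past 1.5-fold, with intervals that held 0. These were 2 of 7 measured genes for hypoxia, 1 of 3 for iron uptake, 1 of 1 for heme synthesis, 1 of 4 for iron storage and 1 of 2 for ferroptosis, where 30.4% of all genes reached that size. In TAM-like cells the highest genes of these lists, other than the 8, included Lrp1, a receptor of heme carrier complexes, at 413 and 438 CPM, Alas1, the first enzyme of heme synthesis, at 31.2 and 33.4, Nfe2l2 at 262 and 241, Iscu at 96.3 and 94.3, Prdx1 at 776 and 798 and Gpx4, which reduces lipid peroxides, at 437 and 437. The plasma ferroxidase gene Cp was at 15.3 and 15.9 CPM.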

How the data were processed

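Single-cell 3′ gene expression was measured in CD45+ cells of 1 MWA and 1 MWA plus TIGIT library. The authors deposited a UMI count matrix per library, made with Cell Ranger (6.1.1 in the submitters' processing notes, 4.0.0 in the file header) on mm10. The counts were used as deposited. Barcodes with under 200 genes or with more than 10% of UMIs from mitochondrial genes were left out, and 806 and 786 doublets, called by likeness to simulated doublets, were removed from 10217 and 10190 barcodes. Seurat 5.3.0 (R 4.3.3) integrated the libraries by canonical correlation with 3000 features and 40 components, with 93 iron, heme and metal genes left out, and clusters were named from marker lists, with 375 and 416 cells left unnamed beside the Ctsk cluster. Counts were summed per class and library, totalling 56796869 and 67493562 UMIs. Levels are in CPM with exact Poisson intervals, ratios with exact conditional binomial intervals and shares with exact binomial intervals, at 95%, from Python 3.11.15 and scipy 1.17.1. Ratios needed at least 20 UMIs in both libraries together. TMM factors came from edgeR 4.0.16. There is no replicate check and no p-value. Named were the 8 genes, the 3 genes most like each by pattern (1 is not reported here), and members of the pathway lists past 1.5-fold or highest in a list. Alternatives were TMM scaling, doublets kept, at most 5% mitochondrial UMIs, cells of at most or over 5000 UMIs, marker gates in place of clusters, iron genes kept in clustering, a finer clustering, no minimum of UMIs and the mean over cells. The use of cells over 5000 UMIs was chosen after seeing the data. Members and lists were chosen with earlier results of these data known.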

Additional observations from a re-analysis of the deposited data

Results flagged for a closer look

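For 5 of the genes, the ratio of the MWA plus TIGIT over the MWA library went opposite ways in different classes, with intervals on opposite sides of 0; the difference between classes was not tested, and each group is 1 library. Hmox1 had a log2 ratio of 0.57 in C1q monocyte-like and -0.10 in hypoxic TAM-like cells. In C1q monocyte-like cells of the MWA plus TIGIT library, 82 of its 673 UMIs were in 1 cell. Fth1 had 0.015 in C1q monocyte-like and -0.65 in B-like cells, and Ftl1 0.30 in cDC1-like and -0.43 in B-like cells. The B-like class held only 81 and 59 cells and the cDC1-like class 66 and 28. Mt1 had 0.85 in mature DC-like and -2.38 in neutrophil-like cells, and Mt2 1.69 in mature DC-like and -0.74 in interferon TAM-like cells. The mature DC-like class may be mixed. In interferon TAM-like cells of the MWA library, 29 of the 99 Mt2 UMIs were in 1 cell. Some of these directions were lost with other processing. Fth1 in C1q monocyte-like cells turned to -0.036 with TMM factors, -0.013 with iron genes among the clustering features and -0.14 in cells of at most 5000 UMIs, where Hmox1 in hypoxic TAM-like cells turned to 0.046, Ftl1 in cDC1-like cells to -1.37 and Mt1 in mature DC-like cells to -1.77.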

How the results depend on the processing

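No paired analysis was possible because each group is 1 library. With no minimum of UMIs, 16.1% of genes reached 1.5-fold in TAM-like cells, 50.4% in neutrophil-like cells and 19.2% in CD8+ T cells. Limiting mitochondrial UMIs to 5% moved no value beyond its interval. A finer myeloid clustering turned no direction but moved 14 values of single classes beyond their interval.

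In cells of at most 5000 UMIs the library ratio in TAM-like cells turned for Slc11a1 -0.16, Mt1 0.15 and Mt2 0.42, and in single classes for Hmox1 0.046 in hypoxic TAM-like, Slc11a1 -0.20 in Folr2 Arg1 TAM-like, Fth1 -0.14 in C1q monocyte-like, Fth1 0.33 in interferon TAM-like, Ftl1 -1.37 in cDC1-like, Ftl1 0.10 in interferon TAM-like, Ftl1 0.019 in stem-like CD8, Mt1 0.048 in exhausted-like CD8, Mt1 0.19 in hypoxic TAM-like, Mt1 0.52 in interferon TAM-like, Mt1 -1.77 in mature DC-like and Mt2 0.47 in hypoxic TAM-like. TMM factors turned Fth1 -0.036 in C1q monocyte-like, and iron genes among the clustering features Fth1 -0.013 in C1q monocyte-like, Fth1 0.10 in interferon TAM-like and Ftl1 0.087 in interferon TAM-like. The ratio of TAM-like over other cells, as the mean of the 2 libraries, turned for Slc40a1 from -1.20 to 1.52 in cells of over 5000 UMIs. Neutrophil-like cells, with medians of 932 and 1151 UMIs, held 13 of the 15 and 16 of the 17 Slc40a1 UMIs of the other named cells. The cause was not tested.

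Other log2 ratios kept their direction but moved beyond their interval, and those of TAM-like cells are listed below. Values of TAM-like over other cells are means of the log2 ratios of the 2 libraries. In the main setting these means were Hmox1 2.76, Slc40a1 -1.20, Slc11a1 1.93, Fth1 1.58, Ftl1 1.77, Tfrc -0.77, Mt1 2.37 and Mt2 2.81. Values of single classes and of all CD8+ T cells also moved beyond their interval. They numbered 28 with TMM factors, 16 with doublets kept and 40 in cells of at most 5000 UMIs. The mean of the CPM of each cell moved 10, iron genes among the clustering features 9 and marker gates 4. With TMM factors the library ratio in TAM-like cells was Fth1 -0.15, Ftl1 -0.13 and Mt1 -0.30, and that of TAM-like over other cells was Fth1 1.62, Ftl1 1.81 and Mt1 2.42. With doublets kept the library ratio in TAM-like cells was Fth1 -0.11, Ftl1 -0.081 and Mt1 -0.24, and that of TAM-like over other cells was Hmox1 2.31, Slc11a1 1.77, Fth1 1.39, Ftl1 1.60, Mt1 2.14 and Mt2 2.45. With iron genes among the clustering features the ratio of TAM-like over other cells was Hmox1 2.49, Fth1 1.46, Ftl1 1.70, Mt1 2.28 and Mt2 2.65. With marker gates in place of clusters the library ratio in TAM-like cells was Hmox1 0.13, Fth1 -0.076, Ftl1 -0.066, Mt1 -0.22 and Mt2 -0.19, and that of TAM-like over other cells was Hmox1 4.19, Slc11a1 4.26, Fth1 2.45, Ftl1 2.84, Tfrc -0.97, Mt1 3.36 and Mt2 3.02. With the mean of the CPM of each cell the library ratio in TAM-like cells was Fth1 -0.087 and Mt1 -0.25, and that of TAM-like over other cells was Slc40a1 -3.23, Slc11a1 2.06, Fth1 1.69, Ftl1 1.96, Mt1 2.80 and Mt2 3.23. In cells of at most 5000 UMIs the library ratio in TAM-like cells was Fth1 -0.090, Ftl1 -0.10 and Tfrc 0.39, and that of TAM-like over other cells was Hmox1 4.13, Slc11a1 2.81, Fth1 2.40, Ftl1 2.47, Mt1 3.80 and Mt2 4.64. In cells of over 5000 UMIs, an alternative chosen after seeing the data, the library ratio in TAM-like cells was Fth1 -0.10, and that of TAM-like over other cells was Hmox1 2.55, Slc11a1 1.61, Fth1 1.37, Ftl1 1.498, Tfrc -1.002, Mt1 1.999 and Mt2 2.53.

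Few UMIs limited the neutrophil-like class, of which thinning left out 55 and 38 cells. With doublets kept, 1 CD8 cluster stayed unnamed.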
